A study of Homo sapiens with 22 samples.

Results

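The circadian clock output genes examined here were 10 genes chosen by name: PER1, PER2, PER3, CRY1, CRY2, DBP, TEF, CIART, BHLHE40 and NFIL3, of 61487 genes in the count table. They were chosen as clock genes, by name and not by a threshold on their values, but with earlier results of these data known. The shares over all genes given below are therefore a description and not a test of the list. All 10 were counted in each of 22 samples and all 10 passed the filter on low counts, a count above 5 in at least 3 samples, as did 20373 genes in all.

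RNA was sequenced from Caco-2 cells, an established human colorectal adenocarcinoma line, labelled undifferentiated and wildtype, that serves as a model of the intestinal epithelium. For 48 h, 10% of the culture medium was replaced by the vehicle (PBS, n = 4), by faecal water from untreated mice (FWctl, n = 7), by faecal water taken from those mice under antibiotic treatment (FWatb, n = 7), or by the cocktail of neomycin, vancomycin and meropenem itself (ATB, n = 4). Faecal water is the supernatant of faeces homogenized in PBS, and all cells, the PBS group included, grew in medium that already held an antibiotic-antimycotic supplement. Samples of the FW groups differ by donor mouse. Whether the samples of PBS and ATB came from separate cultures is not given in the sources used here, so their spread may be technical and p-values measure the spread between these samples. All cells were collected after the same exposure, and neither the clock time of collection nor any synchronization of the cells is given in the sources used here, so the values are levels at 1 time point and carry no phase.

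The circadian clock is a loop of transcription and repression present in most cells. CLOCK and BMAL1 bind E-box elements and drive the PER and CRY genes, whose proteins repress CLOCK and BMAL1 in turn. Further genes driven by the loop carry its timing to other promoters: DBP and TEF activate, and NFIL3 represses, genes with D-box elements, while CIART and BHLHE40 repress E-box genes. In the gut, the clock is known for daily rhythms of nutrient uptake, barrier function and drug transport.

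Promoters of all 10 genes were read for these elements, whether or not the genes changed. RefSeq (GRCh38.p14) listed 14 promoters for the 10 genes, each spanning 250 bases before to 50 bases after a start site. The E-box CACGTG was present in 5 of the 14 promoters (those of CIART, PER1 and BHLHE40 and both of TEF), against 7.26% of all 35116 promoters. CIART held 3 E-boxes, and 3 or more were found in 33 of the 35116 promoters (0.094%). The D-box TTATGTAA was found in PER3 (0.886% of all promoters) and its variant TTACGTAA in PER2 (0.125%). The cyclic AMP element TGACGTCA was in none of the 14, against 1.85% of all. Motifs were searched on both strands, and a match says only that the letters are present. Any part of these motifs in the changes below was not tested. PER1, with an E-box, was called in no comparison below. CRY2, DBP and NFIL3, with none of these exact letters in the stretches read, were called lower between both faecal waters. Other spellings of these elements, and sites outside these stretches, were not searched. The lines below give the CIART stretch (chr1:150282304-150282553, plus strand, bases -250 to -1), the PER3 stretch (chr1:7784041-7784290, plus strand, bases -250 to -1) and the PER2 stretch (chr2:238288606-238288710, minus strand, bases -100 to 5), 5′ to 3′, with E-boxes or D-boxes in capitals.
CIART: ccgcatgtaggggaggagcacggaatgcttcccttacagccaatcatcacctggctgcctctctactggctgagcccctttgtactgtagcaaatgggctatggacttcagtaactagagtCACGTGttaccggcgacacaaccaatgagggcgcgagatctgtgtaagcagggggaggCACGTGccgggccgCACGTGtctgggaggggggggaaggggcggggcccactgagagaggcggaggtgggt
PER3: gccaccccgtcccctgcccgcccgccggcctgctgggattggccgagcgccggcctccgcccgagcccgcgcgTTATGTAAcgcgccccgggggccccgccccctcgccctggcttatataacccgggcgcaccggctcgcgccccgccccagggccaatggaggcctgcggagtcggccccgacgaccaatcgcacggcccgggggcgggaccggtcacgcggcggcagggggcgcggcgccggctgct
PER2: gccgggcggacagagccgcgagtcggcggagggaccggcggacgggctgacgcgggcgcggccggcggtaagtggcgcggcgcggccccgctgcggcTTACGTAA

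Total counts ranged from 7118302 to 18726967 per sample. FWctl replicate 1 stood apart from the other FWctl samples (first principal component 9.12, against 36.14 to 40.95), and results are given for 21 samples without it, with the values over all 22 beside the main ones. Ribosomal DNA transcripts took 0.0163% to 0.0805% of the counts in 8 libraries (low-rDNA) and 1.87% to 8.19% in 14 (high-rDNA). All FWatb samples were among the 14. The 8 held 15604065 to 18726967 counts and the 14 held 7118302 to 12248577, so the library set is also a split by depth. Values below are normalized counts, that is, counts scaled by TMM to the mean effective library size of 12581679. The summed normalized count of 7 intestinal epithelial markers (EPCAM, KRT8, KRT18, CDX2, VIL1, CDH1 and CDH17) ranged from 37108 to 42832 in PBS, 44891 to 50041 in FWctl, 37293 to 48476 in FWatb and 40344 to 42283 in ATB. That of 8 markers of other cell types ranged from 3064 to 4237, 2281 to 3671, 2829 to 3895 and 3757 to 4937 in the same order, and most of it was APOA2 (means 2812, 2733, 2819 and 2970), which Caco-2 cells also make. APOA2 and COL3A1 were not called in these comparisons. Of these 8, PTPRC (leukocytes) and COL1A2 (fibroblasts) had at most 2 reads and DES (muscle) at most 5 in any sample, while PECAM1, COL1A1 and ALB, the last also made by Caco-2 cells, were lower in FWctl than in PBS (log2 fold changes -1.002, -2.86 and -3.06) and higher in FWatb than in FWctl. PECAM1 read 88 in FWctl replicate 1, above the PBS range of 58.7 to 67.3. With that sample, PECAM1 in FWctl overlapped both PBS and FWatb, while COL1A1 and ALB stayed apart from both. ALB was also lower in FWatb than in PBS (-1.05). The 7 epithelial markers did not move together. Under FWctl against PBS, 3 were called higher and 1 lower (KRT18, -0.285), where 24.3% and 22.1% of all genes were. Under FWatb against FWctl, 2 were called higher and 4 lower, where 23.4% and 25.4% of all genes were. The part of all these markers in the results below was not tested. In bulk RNA, fewer cells expressing a gene and less RNA per cell cannot be told apart.

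On GRCh38 the PER genes lie on chromosome 17 (PER1, ENSG00000179094, 8140472 to 8156506, minus strand), chromosome 2 (PER2, ENSG00000132326, 238244044 to 238290102, minus) and chromosome 1 (PER3, ENSG00000049246, 7784291 to 7845177, plus). CRY1 (ENSG00000008405) lies on chromosome 12 from 106991364 to 107093549 and CRY2 (ENSG00000121671) on chromosome 11 from 45847118 to 45883248. The D-box factors are on chromosome 19 (DBP, ENSG00000105516, 48630030 to 48637379), chromosome 22 (TEF, ENSG00000167074, 41367333 to 41399326) and chromosome 9 (NFIL3, ENSG00000165030, 91409045 to 91423832). CIART (ENSG00000159208) is on chromosome 1 from 150282543 to 150287093 and BHLHE40 (ENSG00000134107) on chromosome 3 from 4979437 to 4985323. All 10 are annotated as protein coding.

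The members were low to moderate in level. Scaled to exon length and library size (fragments per kilobase, FPKM), the PBS means ran from 6.27 for NFIL3, 5.50 for TEF and 5.46 for PER3, through 3.31 for CRY1, 2.49 for CRY2, 2.17 for DBP, 1.96 for BHLHE40 and 1.42 for PER2, to 0.543 for PER1 and 0.503 for CIART. TEF and PER3 differed by less than the SD of either, as did PER1 and CIART. Exon length here joins all annotated exons of a gene, for DBP 6485 bases in 2 blocks, so the order of genes depends on the annotation. The raw counts behind these levels were 12 to 86 reads for CIART, 26 to 74 for PER1 and 48 to 157 for BHLHE40, and 65 or more in every sample for the other members, so counting error is widest for the first 3 of these.

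**Figure D1:**
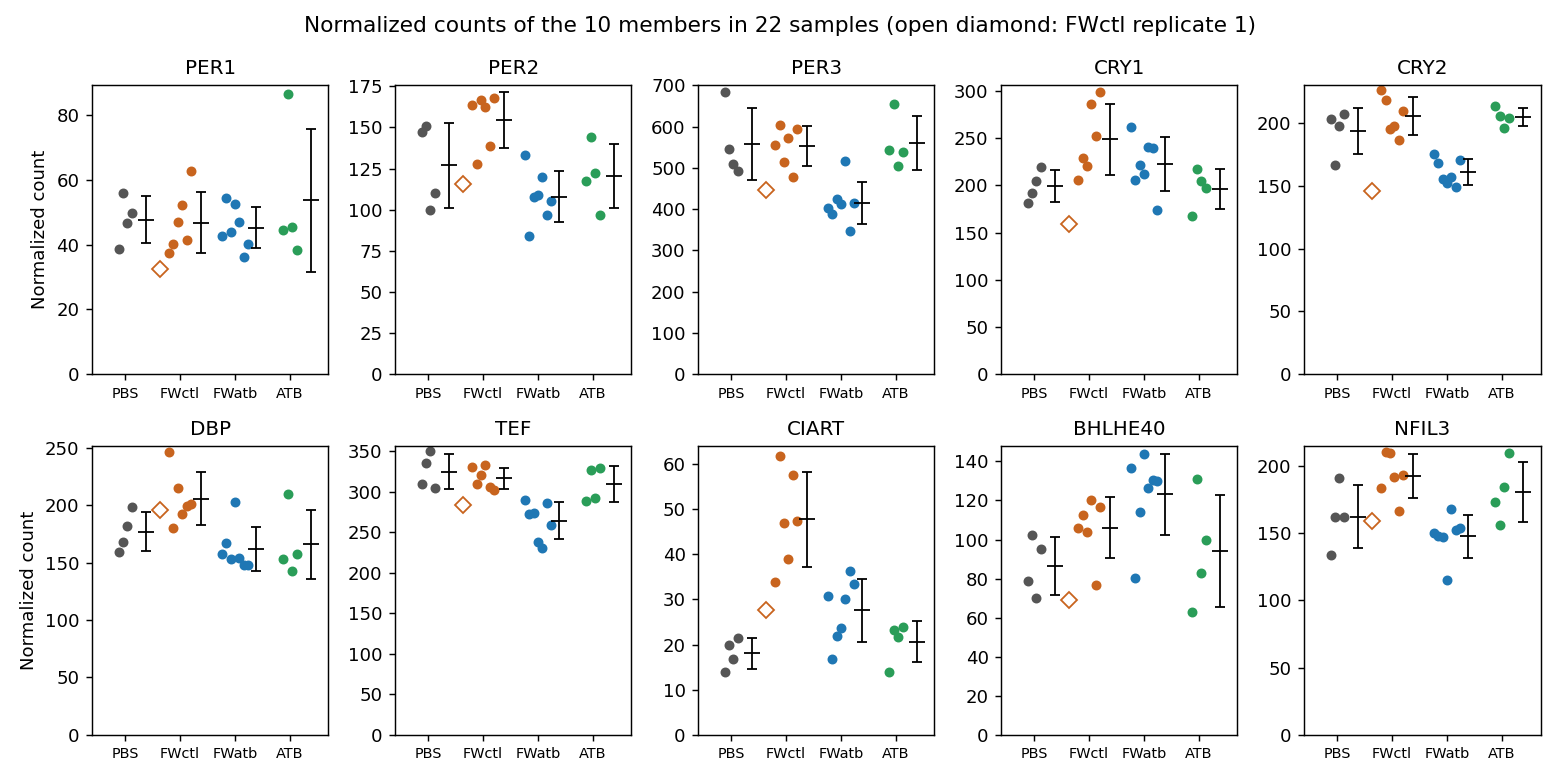
Normalized counts (y axis, from 0) of the 10 genes in PBS, FWctl, FWatb and ATB samples. Points are samples, the open diamond is FWctl replicate 1, and the bars are the mean and SD without it. CIART is higher in all FWctl samples than in PBS.

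The first comparison asked how the genes responded to faecal water of untreated mice. FWctl raised CIART most, and 3 of the 10 genes were called higher and 0 lower against PBS (edgeR's quasi-likelihood test, Benjamini-Hochberg adjusted p under 0.05), where 24.3% of all genes tested were called higher and 22.1% lower. The median log2 fold change of the 10 was 0.23, against 0.02 over all genes. Called with a change over 2-fold were 1 of the 10, and 2681 of 20373 over all genes.

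CIART, which represses CLOCK and BMAL1 activity, read 13.9, 19.95, 16.8 and 21.5 in the PBS samples and from 33.9 to 61.7 (median 47.2) in FWctl. The groups did not overlap, with or without FWctl replicate 1 at 27.7. Its log2 fold change was 1.39 (SE 0.23, 2.62-fold, adjusted p = 1.85e-06 by edgeR), and 1.25 with FWctl replicate 1 (adjusted p = 4.61e-05 by edgeR). CIART was called in each of 32 alternative fits, with log2 fold changes from 1.25 to 1.51. The nearest patterns to CIART over the 21 samples were those of PDCD6IP (Spearman's rho 0.94), SMARCA5 (0.93) and COMMD8 (0.92), among 9313 genes, as a description over samples that share groups.

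CRY1 and PER2 showed smaller changes that did not last across fits. CRY1, a core repressor, read 181, 192, 205 and 219.7 in PBS and from 205.5 to 299 (median 240.4) in FWctl, and the groups overlapped. Its log2 fold change was 0.30 (SE 0.11, adjusted p = 0.0225 by edgeR), and 0.19 (adjusted p = 0.254 by edgeR) with FWctl replicate 1, at 159. The call was also lost without PBS replicate 1, 2 or 3, FWctl replicate 6, 7 or 8, FWatb replicate 4 or ATB replicate 3 or 4 (0.19 to 0.27). Among the high-rDNA libraries it was 0.48 (adjusted p = 0.00965 by edgeR), and among the low-rDNA libraries -0.02 (adjusted p = 0.936 by edgeR). PER2 read 147, 151, 99.8 and 110.2 in PBS and from 127.6 to 168 (median 163) in FWctl. The 2 higher PBS values of PER2 were those of the high-rDNA libraries. Its log2 fold change of 0.30 (SE 0.13) lay at the threshold (adjusted p = 0.04997 by edgeR), was lost in 28 of 32 alternatives, among them the omission of any single sample but PBS replicate 1 or 2 or FWctl replicate 3, and was 0.07 (adjusted p = 0.756 by edgeR) among the high-rDNA libraries and 0.42 (adjusted p = 0.0404 by edgeR) among the low. With FWctl replicate 1 it was 0.21 (adjusted p = 0.216 by edgeR). The other 7 genes had log2 fold changes from -0.05 (PER1) to 0.31 (BHLHE40) and were not called.

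The second comparison asked about faecal water of the same mice under antibiotics. Against PBS, PER3, TEF and CRY2 were lower and BHLHE40 was higher under FWatb, so 1 of the 10 genes was called higher and 3 lower, where 6.04% of all genes were called higher and 3.95% lower. The median log2 fold change of the 10 was -0.14, against 0 over all genes.

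PER3, a period protein with a D-box in its promoter, read 684, 546, 509 and 492 in PBS and from 347 to 516 (median 411) in FWatb. A single FWatb sample, at 516, lay within the PBS range. The log2 fold change was -0.42 (SE 0.09, adjusted p = 0.00172 by edgeR), and -0.43 with FWctl replicate 1 in the fit (adjusted p = 0.00521 by edgeR). PER3 was called in each of 31 alternatives.

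TEF, an activator at D-boxes, read 309, 335, 351 and 305 in PBS and from 231 to 289.6 (median 272) in FWatb. All FWatb values were below all PBS values. Its log2 fold change was -0.30 (SE 0.08, adjusted p = 0.0106 by edgeR), and was not called without PBS replicate 3 (-0.25, adjusted p = 0.0734 by edgeR), among the high-rDNA libraries (adjusted p = 0.112 by edgeR) or by library size alone (adjusted p = 0.0717 by edgeR).

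CRY2, the second cryptochrome repressor, read 204, 167, 198 and 208 in PBS and from 149 to 176 (median 157) in FWatb. The lowest PBS sample lay within the FWatb range. Its log2 fold change of -0.27 (SE 0.09, adjusted p = 0.0391 by edgeR) was lost in 12 of 31 alternatives, with FWctl replicate 1 in the fit among them (adjusted p = 0.0972 by edgeR). It was lost without PBS replicate 1, 3 or 4 or FWatb replicate 3, 4 or 7 (-0.24 to -0.28). BHLHE40, a repressor of E-box genes, read 78.6, 102, 69.9 and 95.4 in PBS and from 80.4 to 144 (median 130.1) in FWatb. Its groups overlapped through FWatb replicate 2, and its log2 fold change of 0.52 (SE 0.15, adjusted p = 0.0180 by edgeR) was lost in 5 of 31 alternatives, those without PBS replicate 1 (0.46) or 3 (0.43) and the fit over all 22 samples (0.51) among them. CIART, at 16.9 to 36.3 (median 29.98) in FWatb, had a log2 fold change of 0.61 (SE 0.23, adjusted p = 0.0922 by edgeR).

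**Figure D2:**
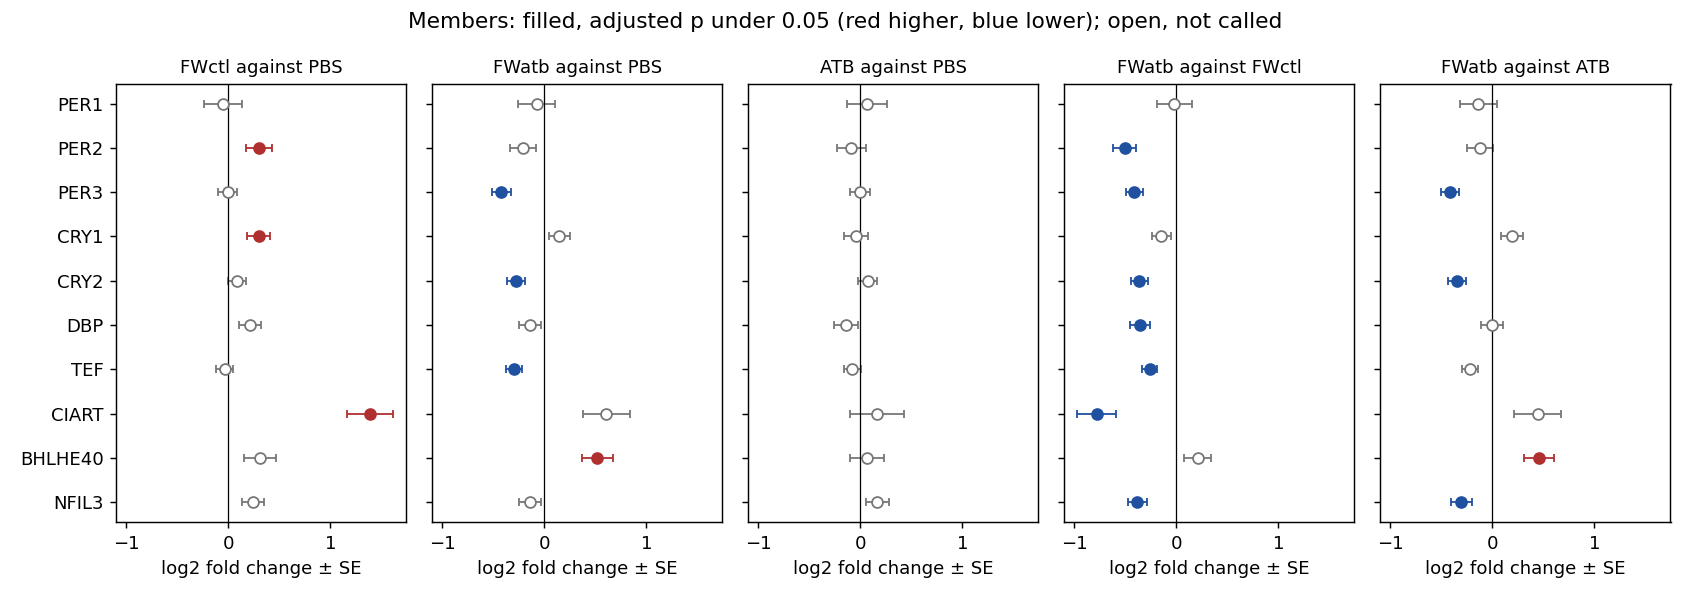
Log2 fold change with its SE (x axis) of each gene (y axis) in 5 comparisons, 21 samples, and filled points have an edgeR adjusted p under 0.05. FWatb against FWctl holds 7 genes lower, and ATB against PBS none called.

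The antibiotic cocktail itself changed none of the 10 detectably: 0 were called against PBS by edgeR, 0 had an unadjusted p under 0.05, and DESeq2 called 0. Over all genes 0.255% were called higher and 0.0295% lower, and 1690 of 20373 had an unadjusted p under 0.05 by edgeR. Log2 fold changes lay between -0.14 (DBP, SE 0.12) and 0.17 (NFIL3, SE 0.12). With 4 samples a group, an SE of 0.26 for CIART and 0.20 for PER1 leaves changes of that size undetectable.

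The direct comparison of both faecal waters gave the broadest difference. Under FWatb, 7 of the 10 genes were lower than under FWctl and 0 higher, namely PER2, PER3, CRY2, DBP, TEF, CIART and NFIL3, where 25.4% of all genes were called lower and 23.4% higher. The median log2 fold change was -0.36, against -0.01 over all genes. Called with a change over 2-fold were 0 of the 10, and 2590 of 20373 over all genes. FWctl is shared with the first comparison and FWatb with the second, so these 3 are not independent. The replicate numbers were taken to mark mice, since the same mice gave both waters.

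CIART showed the greatest fall, from a median of 47.2 in FWctl to 29.98 in FWatb. Its ranges met between 33.9 and 36.3, and its log2 fold change was -0.78 (SE 0.19, adjusted p = 5.28e-04 by edgeR). PER2 fell from 127.6 to 168 in FWctl to between 84.3 and 133 in FWatb (median 107), with a log2 fold change of -0.51 (SE 0.11, adjusted p = 2.61e-04 by edgeR). Only FWatb replicate 1 reached the FWctl range of PER2. PER3 fell from 477 to 604 (median 564) to the values given above, by 0.41 on the log2 scale (SE 0.08, adjusted p = 5.72e-05 by edgeR).

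CRY2 read from 187 to 227 (median 204) in FWctl, above all FWatb samples. Its log2 fold change was -0.36 (SE 0.08, adjusted p = 2.27e-04 by edgeR). The groups of TEF were also apart, with FWctl samples from 302 to 333 (median 315) and a log2 fold change of -0.26 (SE 0.07, adjusted p = 0.00253 by edgeR). With FWctl replicate 1, at 146 for CRY2 and 284 for TEF, both pairs of groups overlapped.

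The D-box factors DBP and NFIL3 fell alongside TEF. DBP, an activator, read from 179.9 to 246 (median 200.2) in FWctl and from 148 to 202.5 (median 154) in FWatb, and fell by 0.36 on the log2 scale (SE 0.10, adjusted p = 0.00193 by edgeR). NFIL3, the repressor at the same element, read from 166 to 210.03 (median 192) in FWctl and from 115 to 168 (median 149.6) in FWatb, and fell by 0.38 (SE 0.10, adjusted p = 8.34e-04 by edgeR). Both pairs of groups overlapped through 1 FWatb sample each.

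Each of the 7 was lower under FWatb in 6 of 6 pairs of equal replicate number. For CRY2, TEF and PER2 any pairing of these samples gives 6 of 6, since their values do not overlap. With the replicate number as a block the same number of genes was called. In the pair of FWctl replicate 1, PER2, CRY2, TEF and CIART were instead higher under FWatb, by log2 ratios of 0.20, 0.27, 0.03 and 0.15. Over all 22 samples 7 genes were still called lower, with CIART at -0.66 (adjusted p = 0.00541 by edgeR) and PER2 at -0.43 (adjusted p = 0.00277 by edgeR). All 7 were also called among the high-rDNA libraries, where log2 fold changes ran from -0.23 (TEF) to -0.76 (CIART). Scaling by library size alone left 6 lower, TEF being lost (adjusted p = 0.0842 by edgeR), and called BHLHE40 higher (adjusted p = 0.0473 by edgeR). Under that scaling 5808 genes were higher and 3933 lower over all genes, against 4762 and 5180.

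PER1, CRY1 and BHLHE40 were not called between both faecal waters. PER1 was lower in 3 of 6 pairs and CRY1 in 5, while BHLHE40 was higher in 5. Their log2 fold changes were -0.02 (SE 0.17), -0.15 (SE 0.10) and 0.21 (SE 0.13), and that of PER1 changed sign between fits.

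**Figure D3:**
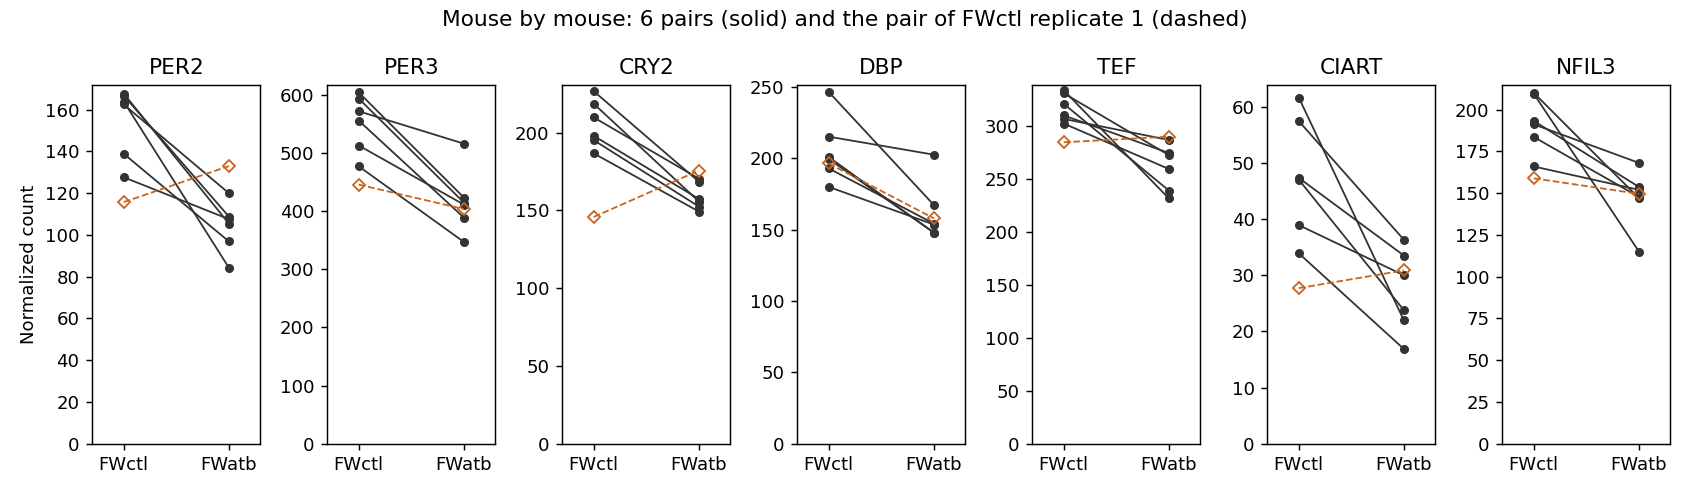
Normalized counts (y axis, from 0) of the 7 genes called between FWatb and FWctl, joined by replicate number, taken as the mouse. The 6 solid lines fall for every gene, and the dashed line is the pair of FWctl replicate 1.

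Set against the cocktail rather than PBS, FWatb gave a like picture for PER3 and CRY2. Of the 10 genes, 1 was higher (BHLHE40) and 3 lower (PER3, CRY2 and NFIL3), where 7.66% of all genes were called higher and 6.86% lower. PER3 had a log2 fold change of -0.42 (SE 0.09, adjusted p = 0.00121 by edgeR) and was called in each of 30 alternatives, at -0.42 with FWctl replicate 1 in the fit. CRY2 was at -0.35 (SE 0.09, adjusted p = 0.00485 by edgeR), with all FWatb samples below all ATB samples, from 196 to 214. The CRY2 call held with FWctl replicate 1 (adjusted p = 0.0226 by edgeR) and was lost in 2 of 30 alternatives, by library size alone (-0.25, adjusted p = 0.0791 by edgeR) and with the library set as a term (-0.25, adjusted p = 0.150 by edgeR). BHLHE40 (0.46, SE 0.15, adjusted p = 0.0323 by edgeR) and NFIL3 (-0.31, SE 0.10, adjusted p = 0.0400 by edgeR) were lost in 9 and 14 of the 30 alternatives. BHLHE40 was lost without FWatb replicate 1, 4, 7 or 8 or ATB replicate 1 or 3 (0.29 to 0.44), and NFIL3 without PBS replicate 2, FWatb replicate 1, 2, 3, 4, 7 or 8 or ATB replicate 1, 3 or 4 (-0.33 to -0.21). FWatb against ATB shares its FWatb samples with the comparisons above. All ATB samples but replicate 2 were low-rDNA and all FWatb samples high-rDNA, so treatment and library set can hardly be told apart here.

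Beyond the members, 3 further lists of clock genes and related genes were described, and not every gene in them is a part of the clock. In the activator and nuclear receptor loop, 7 genes were tested. Against PBS, FWctl raised CLOCK (log2 fold change 0.30) and NR1D2, a repressor of BMAL1 (0.31), and lowered BMAL1 (-0.37). BMAL1 read 203, 222, 214 and 240.5 in PBS and from 148 to 203 in FWctl. The groups nearly met, with the lowest PBS value at 202.84 and the highest FWctl value at 202.66. Between both faecal waters, BMAL1 (0.24) and its relative BMAL2 (0.36) were higher and CLOCK (-0.36) and NR1D2 (-0.59) lower under FWatb, so 2 of 7 rose and 2 fell, where 23.4% of all genes were called higher and 25.4% lower. NR1D2 was lower in 6 of 6 pairs, as was CLOCK, and BMAL2 was higher in 6 of 6. For NR1D2 and CLOCK any pairing gives this, since FWctl and FWatb did not overlap without FWctl replicate 1. In the pair of FWctl replicate 1, CLOCK had a log2 ratio of 0.06 and NR1D2 of -0.18. Over all 22 samples these calls held, CLOCK at 0.22 (adjusted p = 0.0457 by edgeR) and NR1D2 at 0.22 (adjusted p = 0.0493 by edgeR) under FWctl against PBS, where the groups of both then overlapped.

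In a list of 8 genes, kinases and ubiquitin factors that act on PER and CRY together with TIMELESS, a replication fork protein, 2 rose and 1 fell under FWctl against PBS (24.3% and 22.1% of all genes), since FWctl raised CSNK1E (0.53) and CSNK1A1 (0.44) and lowered BTRC (-0.28). Under FWatb against FWctl, CSNK1E (-0.39), CSNK1A1 (-0.32) and GSK3B (-0.25) were lower and TIMELESS (0.37) was higher. All of these were also called over the 22 samples, where the CSNK1E groups of FWctl and PBS overlapped.

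Among 8 other outputs and relatives, 4 rose (KLF10, BHLHE41, HLF at 0.45 and FKBP5 at 0.37) and 2 fell (WEE1 at -0.25 and NAMPT at -0.26) under FWctl against PBS, where 24.3% of all genes were called higher and 22.1% lower. With FWctl replicate 1, HLF was at 0.38 and not called (adjusted p = 0.0756 by edgeR). Under ATB against PBS, HLF was at 0.47, a like size, and not called (adjusted p = 0.391 by edgeR). All ATB values of HLF (56.0 to 59.7) were above all PBS values (32.4 to 55.1). KLF10, a zinc-finger repressor, went from 99.4 to 140.4 in PBS to 498 to 792 in FWctl, a log2 fold change of 2.40. Under FWatb it fell by 1.745 from there on the log2 scale (adjusted p = 9.71e-20 by edgeR). It fell in 6 of 6 pairs, as any pairing would give, since FWctl and FWatb did not overlap without FWctl replicate 1. KLF10 read 205 in FWctl replicate 1, and over all 22 samples its log2 fold changes were 2.22 and -1.57. BHLHE41, the close relative of BHLHE40, rose by 2.15 and fell by 1.70, on 1 to 22 reads per sample. BHLHE41 read 0.81 in FWctl replicate 1, within the PBS range of 0.73 to 6.23, its pair had a log2 ratio of 1.33, and with that sample both pairs of groups overlapped (log2 fold changes 1.87 and -1.43). BHLHE40 was not called in either of these 2 comparisons. Under FWatb against PBS, KLF10 (0.65) and FKBP5 (0.50) rose and TSC22D3 (-0.78) fell, KLF10 not being called over all 22 samples (adjusted p = 0.0542 by edgeR), and NR1D2 (-0.28) was the 1 gene of the first list that changed. ATB called 0 genes in all 3 lists. Of the 8 other outputs, 3 had an unadjusted p under 0.05 by edgeR, all higher (HLF at 0.47, BHLHE41 at 1.34 and KLF10 at 0.27). Over all genes, 1690 of 20373 had such a p.

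**Figure D4:**
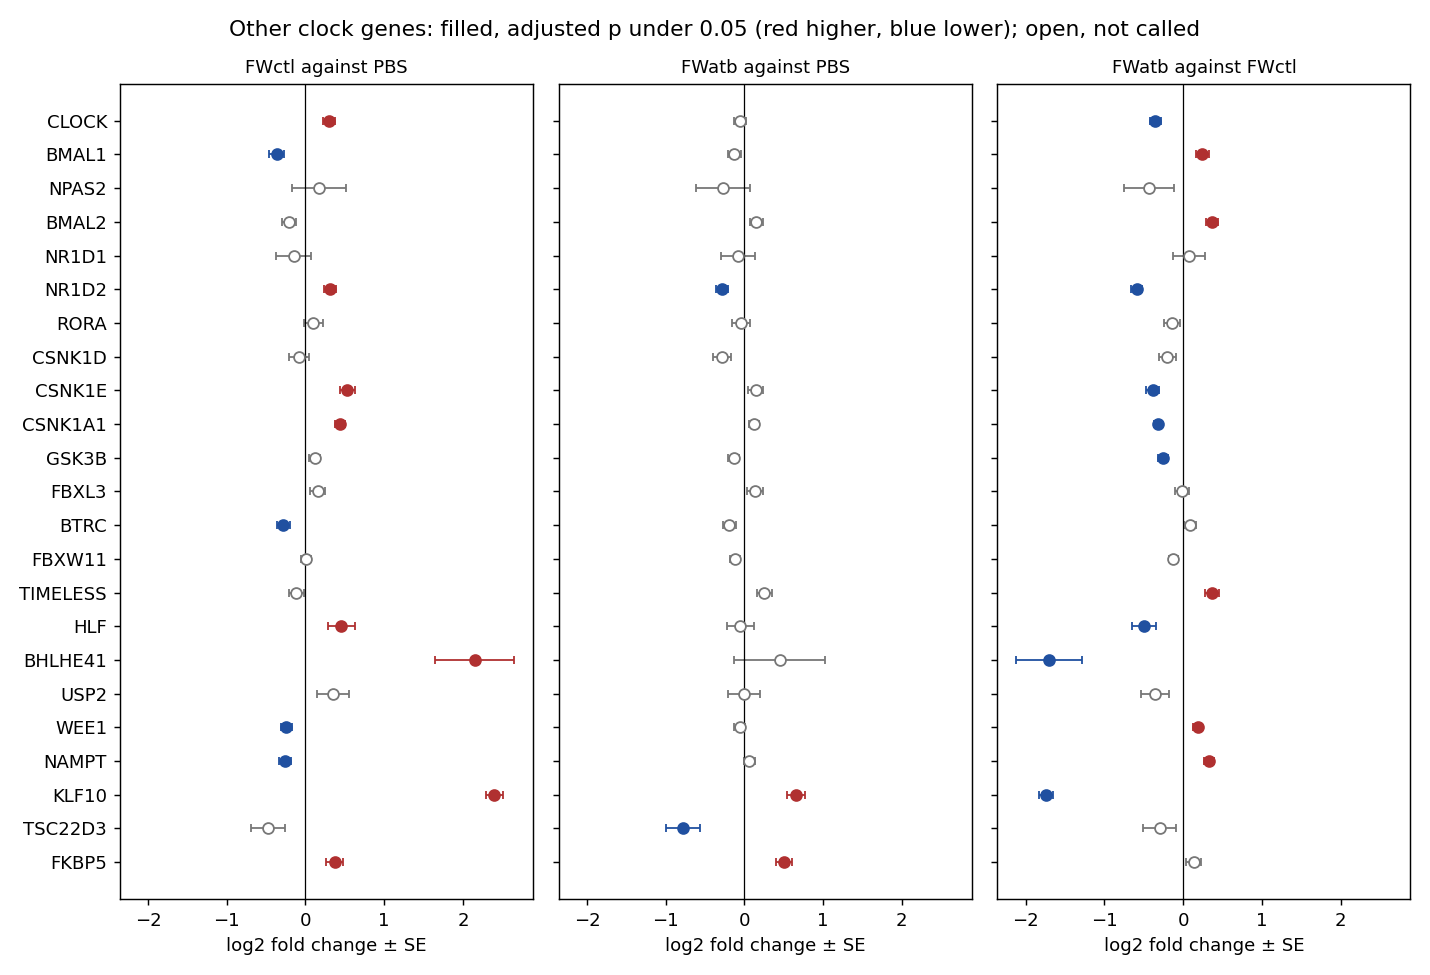
Log2 fold change with its SE (x axis) of 23 genes of the 3 further lists (y axis) in 3 comparisons, and filled points have an edgeR adjusted p under 0.05. KLF10 and BHLHE41 reach 2.40 and 2.15 under FWctl against PBS.

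Reads from overlapping genes could enter some of these counts, since the sources used here do not say whether reads were counted by strand. SPHK2 shares 661 of 6485 exon bases with DBP on the other strand, had mean normalized counts of 453 to 556, and moved the opposite way between both faecal waters (log2 fold change 0.26). UTS2 shares 868 of 8128 exon bases with PER3 but had a mean of at most 1.48. ENSG00000236266 shares 482 exon bases with PER3, had means of 4.25 to 10.4, and was lower under FWatb than FWctl (-0.97, adjusted p = 0.0358 by edgeR), as PER3 was. BHLHE40-AS1 shares 451 of 3516 with BHLHE40, at a mean of at most 6.68.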

How the data were processed

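The authors trimmed reads with Trimmomatic 0.38, aligned them with HISAT2 2.1.0 to GRCh38 and used featureCounts (Subread 2.0.0) to count reads on Ensembl genes, per the labels and the methods. The deposited values are the authors' raw read counts, neither normalized nor filtered. Libraries were stranded total RNA after ribosomal RNA depletion.

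Counts were tested with edgeR 4.0.16 (R 4.3.3): TMM, quasi-likelihood test, 1 model of 4 groups, Benjamini-Hochberg adjustment at 0.05 over 20373 genes. The study excluded 1 unnamed FWctl sample as an outlier, and replicate 1 was taken as that sample. Symbols came from GENCODE 44, which held 61369 of 61487 identifiers. Within groups, replicate pairs differed by more than counting error (54 pairs, chi-square over its degrees of freedom 3.58 to 118.4). The same mice are stated to have given both waters, so FWctl and FWatb numbers were taken to mark mice. Deviations from group means correlated at 0.185 between them for the same number (-0.0357 to 0.448, 4 of 6 highest with their own number), against -0.03 for other numbers. PBS and ATB, which no mouse links, correlated at 0.28, so the correlation does not show that numbers mark mice.

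Members and gene lists were chosen with earlier results of these data known. Named genes were the members, the largest changes in each list and direction, genes overlapping members, and for 3 members the 3 most alike genes with a mean count of at least 100. GSK3B, HLF and FKBP5 were named after their values were seen. Fits were tested on simulated data. The fit of the 3 further lists over all 22 samples was added after seeing the data. Alternatives are given in the closing section. Some listed genes are not reported here.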

Additional observations from a re-analysis of the deposited data

Results flagged for a closer look

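Among 40 groups of samples (10 genes in 4 groups), 4 held a sample far from the others by Dixon's criterion, and chance gives about 1 in 20. PER1 in ATB replicate 2 was 86.7, against 45.5 for the next sample, on 45 reads. DBP in FWatb replicate 4 was 202.5, against 167, and NFIL3 in the same sample was 115, against 147. BHLHE40 in FWctl replicate 7 was 76.6, against 104, on 48 reads. No technical cause was tested for any of them.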

How the results depend on the processing

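Of the 50 log2 fold changes of the 10 genes, 18 were called, and 9 of these kept an adjusted p under 0.05 in every alternative fit. With FWctl replicate 1, the number called was 1 for FWctl against PBS (3 without it), 2 for FWatb against PBS (4) and 2 for FWatb against ATB (4). The replicate block gave 1 for FWctl against PBS and changed no other count by over 1.5 times. The sources used here do not say whether same-numbered PBS and FWctl samples share more than a number. The library set as a term gave 2 for FWatb against PBS and 1 for FWatb against ATB, the high-rDNA libraries alone 2 for FWatb against PBS, and library size alone 2 for FWatb against ATB. A fold change limit of 1 on the log2 scale left 0 of 7 for FWatb against FWctl, and 2590 of 20373 over all genes. Leaving out 1 replicate gave 1 to 3, 1 to 4 and 2 to 4 for FWctl against PBS, FWatb against PBS and FWatb against ATB. PBS replicate 3 decided most for FWatb against PBS, with 1 called without it. The cause was not tested.

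Log2 fold changes that changed sign were all under 0.19 in size and none was called in the alternative. For PER1 they were 0.10 (FWctl against PBS, high-rDNA), 0.006 and 0.021 (FWatb against PBS, library size alone and replicate block), -0.19 (ATB against PBS, low-rDNA) and, for FWatb against FWctl, 0.070, 0.084, 0.014, 0.020 and 0.075 (22 samples, library size alone, only the compared groups, replicate block, replicate block with 22 samples). Leaving out a replicate gave PER1 -0.198 to 0.021, -0.164 to 0.182, -0.094 to 0.112 and -0.256 to 0.090 in FWctl against PBS, ATB against PBS, FWatb against FWctl and FWatb against ATB. PER2 in ATB against PBS was 0.005 with the library set and 0.077 in low-rDNA libraries. PER3 was 0.164 and 0.077 in FWctl against PBS (low-rDNA, replicate block), with -0.083 to 0.068 when a replicate was left out, and 0.031 and 0.063 in ATB against PBS (library set, low-rDNA), with -0.083 to 0.092. CRY1 was -0.016 in FWctl against PBS (low-rDNA), the 1 called value among these, and -0.101 to 0.032 in ATB against PBS when a replicate was left out. CRY2 was -0.015 (22 samples, and -0.013 to 0.122 when a replicate was left out) in FWctl against PBS. DBP in FWatb against ATB was 0.087, 0.006 and 0.066 (library size alone, library set, replicate block), with -0.069 to 0.098 when a replicate was left out. BHLHE40 in ATB against PBS was -0.031 (low-rDNA), with -0.077 to 0.227, and NFIL3 in FWatb against PBS was 0.007 (high-rDNA).

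Library size alone moved the balance of calls over all genes to 2090 higher and 411 lower for FWatb against PBS (1231 and 804 by TMM) and to 2662 and 724 for FWatb against ATB (1560 and 1398). Counting error is wide for CIART and PER1, and PBS and ATB hold 4 samples each. The labels name no batch, and all FWatb libraries were in the set high in rDNA and lower in depth. A library set effect and FWatb therefore cannot be fully told apart.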

Other observations

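The patterns most like that of BHLHE40 over the 21 samples were those of LOX (Spearman's rho 0.88), PKP2 (0.77) and CCDC88C (0.75). For PER2 they were CEP68 (0.88), TNKS (0.85) and CLHC1 (0.84). These are descriptions over samples that share groups.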
